A study of Rattus norvegicus with 2 samples.

Results

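The pancreatic acinar cell makes and stores digestive enzymes, and 41 genes stand here for that identity: 16 hydrolases of starch, protein, fat and RNA, 11 granule, regenerating and kallikrein proteins, and 14 transcription factors of the acinar and pancreatic lineage. They were chosen by name from knowledge of the acinar cell and leave out the trypsinogens. Of the 41, 36 could be paired with a target on the array, out of 15565 named genes, and each of the 36 had 1 target. Amy1a was found under its current name Amy1, and no target was paired with Cela3b, Sycn, Rbpjl, Mnx1 or Prox1, whose levels were not analysed here. The cells were AR42J, a rat line from an exocrine pancreatic tumour, given in the labels as exocrine pancreas. One group was untreated and the other was given taurolithocholic acid 3-sulfate (TLC-S), a sulfated bile acid used to injure acinar cells, at 200 µM for 20 min. Both groups were grown in the same serum-containing medium. Each group had 1 one-colour NimbleGen array of total RNA, so each ratio compares 2 arrays, no test between groups was run, and higher or lower means TLC-S against control on these arrays.

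In the acinar cell, enzyme genes are switched on by PTF1, a complex of the pancreas-specific factor Ptf1a, a widely expressed E protein such as Tcf12 or Tcf3, and the factor Rbpj or its pancreatic relative Rbpjl. PTF1 reads a paired site, an E-box beside a TC box. Nr5a2 and Gata factors act on many of the same genes, and Bhlha15, also called Mist1, builds the secretory apparatus of mature acinar cells and of other secretory cells, plasma cells included. Fewer cells of a type and less RNA per cell cannot be told apart in RNA of a whole culture.

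The promoters of 3 enzymes, 1 kallikrein and Bhlha15 are shown because the levels of the enzymes are set beside those of the factors that bind such sites. RefSeq's promoter table (build GRCr8) held 32 of the 41 genes. The search covered the 250 bases before each gene's start for the E-boxes CACCTG and CAGCTG and for the TC box TTTCCCA, on both strands. An E-box was found in 14 of the 32 windows (43.8%), against 25.5% of the 27457 genes in the table, and a TC box in 4 (12.5%), against 7.01%. By group, an E-box was found in 57.1% of 14 hydrolases, 42.9% of 7 granule, regenerating and kallikrein proteins and 27.3% of 11 transcription factors. The windows of Tcf12, Gata6 and Ptf1a held neither motif. Both motifs were found in Cel, Cela3b and Ctrb1, and in 1.69% of all genes. In the window of Ctrb1, which encodes chymotrypsinogen B, the E-box and the TC box lay 4 bases apart, and in that of Cel, the bile salt-stimulated lipase, 14 bases apart. Cela1, a pancreatic elastase, had 3 E-boxes, as did Bhlha15. Klk1, tissue kallikrein, had 1 and no TC box. A match describes letters and is not a bound site. The windows are chr19:56566979-56567228 (minus strand) for Ctrb1, chr3:32289020-32289269 (minus) for Cel, chr7:133665062-133665311 (minus) for Cela1, chr12:15538300-15538549 (minus) for Bhlha15 and chr1:103778902-103779151 (plus) for Klk1, written 5′ to 3′ on the gene's strand with the motifs in capitals.
Ctrb1: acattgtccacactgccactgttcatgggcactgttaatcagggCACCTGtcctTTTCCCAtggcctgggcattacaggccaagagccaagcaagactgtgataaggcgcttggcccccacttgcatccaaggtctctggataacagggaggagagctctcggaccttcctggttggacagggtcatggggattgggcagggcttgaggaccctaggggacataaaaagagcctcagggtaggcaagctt
Cel: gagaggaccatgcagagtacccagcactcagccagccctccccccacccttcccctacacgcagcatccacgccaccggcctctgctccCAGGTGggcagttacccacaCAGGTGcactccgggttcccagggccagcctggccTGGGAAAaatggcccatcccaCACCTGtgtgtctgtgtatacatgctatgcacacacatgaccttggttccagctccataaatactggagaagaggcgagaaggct
Cela1: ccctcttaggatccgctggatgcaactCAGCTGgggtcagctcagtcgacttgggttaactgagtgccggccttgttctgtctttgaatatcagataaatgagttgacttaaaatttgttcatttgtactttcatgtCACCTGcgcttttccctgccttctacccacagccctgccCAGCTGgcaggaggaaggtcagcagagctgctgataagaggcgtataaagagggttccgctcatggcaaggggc
Bhlha15: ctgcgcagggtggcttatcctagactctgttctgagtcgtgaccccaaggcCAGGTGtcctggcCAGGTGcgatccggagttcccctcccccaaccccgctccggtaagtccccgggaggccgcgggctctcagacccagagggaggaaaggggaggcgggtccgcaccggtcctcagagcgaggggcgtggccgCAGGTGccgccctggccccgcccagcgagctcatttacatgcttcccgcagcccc
Klk1: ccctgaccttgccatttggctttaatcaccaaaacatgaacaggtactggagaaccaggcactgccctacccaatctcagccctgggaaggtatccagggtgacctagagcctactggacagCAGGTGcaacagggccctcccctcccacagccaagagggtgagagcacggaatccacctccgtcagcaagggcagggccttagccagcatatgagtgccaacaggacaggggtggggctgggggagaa

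Levels were read first, as RMA intensities on a linear scale. The 8710 random-sequence probes gave 44.7 in control and 40.5 in TLC-S. As a second gauge, 1270 targets of olfactory, vomeronasal and taste receptors, a class expressed mainly in sensory cells although some members occur elsewhere, islet cells included, had medians of 45.0 and 42.9, and their 95th percentiles were 131 and 108. The authors' table of targets lists those at 100 or more on both arrays. By that limit 3 of the 36 genes were measured on both arrays, all of them transcription factors: Tcf12, Bhlha15 and Gata6. The same 3 lay above the receptor 95th percentile on both arrays. Of all named genes, 65.3% reached 100 on both arrays and 60.0% passed the receptor percentile on both. A target without a matching RefSeq accession was named only if it was in the authors' table, so the naming raises these shares. Of all 26419 targets, named or not, 11292 are in that table, and the medians of all targets were 94.5 in control and 91.3 in TLC-S. A further 7 of the 36 reached 100 on 1 array, and 26 were under 100 on both.

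The digestive hydrolases lay in the range of the random probes and the receptors. Of 15 with a target, 0 passed the receptor 95th percentile on either array, and their medians were 55.3 in control and 54.5 in TLC-S. The pancreatic amylase Amy2a3 gave 64.0 in control and 64.8 in TLC-S. The salivary-type amylase Amy1a gave 43.2 and 31.8, under the random probes on both arrays. Amylase genes are close copies, so a target may read more than 1 of them.

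Among the proteases, the elastase Cela1 gave 47.4 in control and 34.8 in TLC-S, and Cela2a 116 and 94.3. Carboxypeptidase A1 (Cpa1) gave 43.1 and 45.5, and carboxypeptidase B1 (Cpb1) 60.8 and 38.5. The chymotrypsin-like protease Ctrl gave 80.6 and 87.2. Only Cela2a reached 100, in control, where it stayed under the receptor percentile. Ctrb1, whose promoter holds the closest E-box and TC box pair shown above, gave 32.3 in control and 67.4 in TLC-S. Both values were within the receptors' range, and the control value was under the random probes.

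The lipid-digesting enzymes followed the same pattern. Pancreatic lipase (Pnlip) gave 48.1 in control and 40.2 in TLC-S, and its cofactor colipase (Clps) gave 117 and 83.3. Colipase reached 100 in control and stayed under the receptor percentile. The lipase-related proteins Pnliprp1 and Pnliprp2 gave 49.3 and 78.6, and 55.3 and 52.0. Cel gave 65.7 in control and 41.3 in TLC-S, and the secreted phospholipase Pla2g1b 49.8 and 54.5. Pancreatic ribonuclease (Rnase1) gave 87.3 and 77.5. For 13 of the 15 hydrolases no fold is given, since both arrays were under 100.

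**Figure D1:**
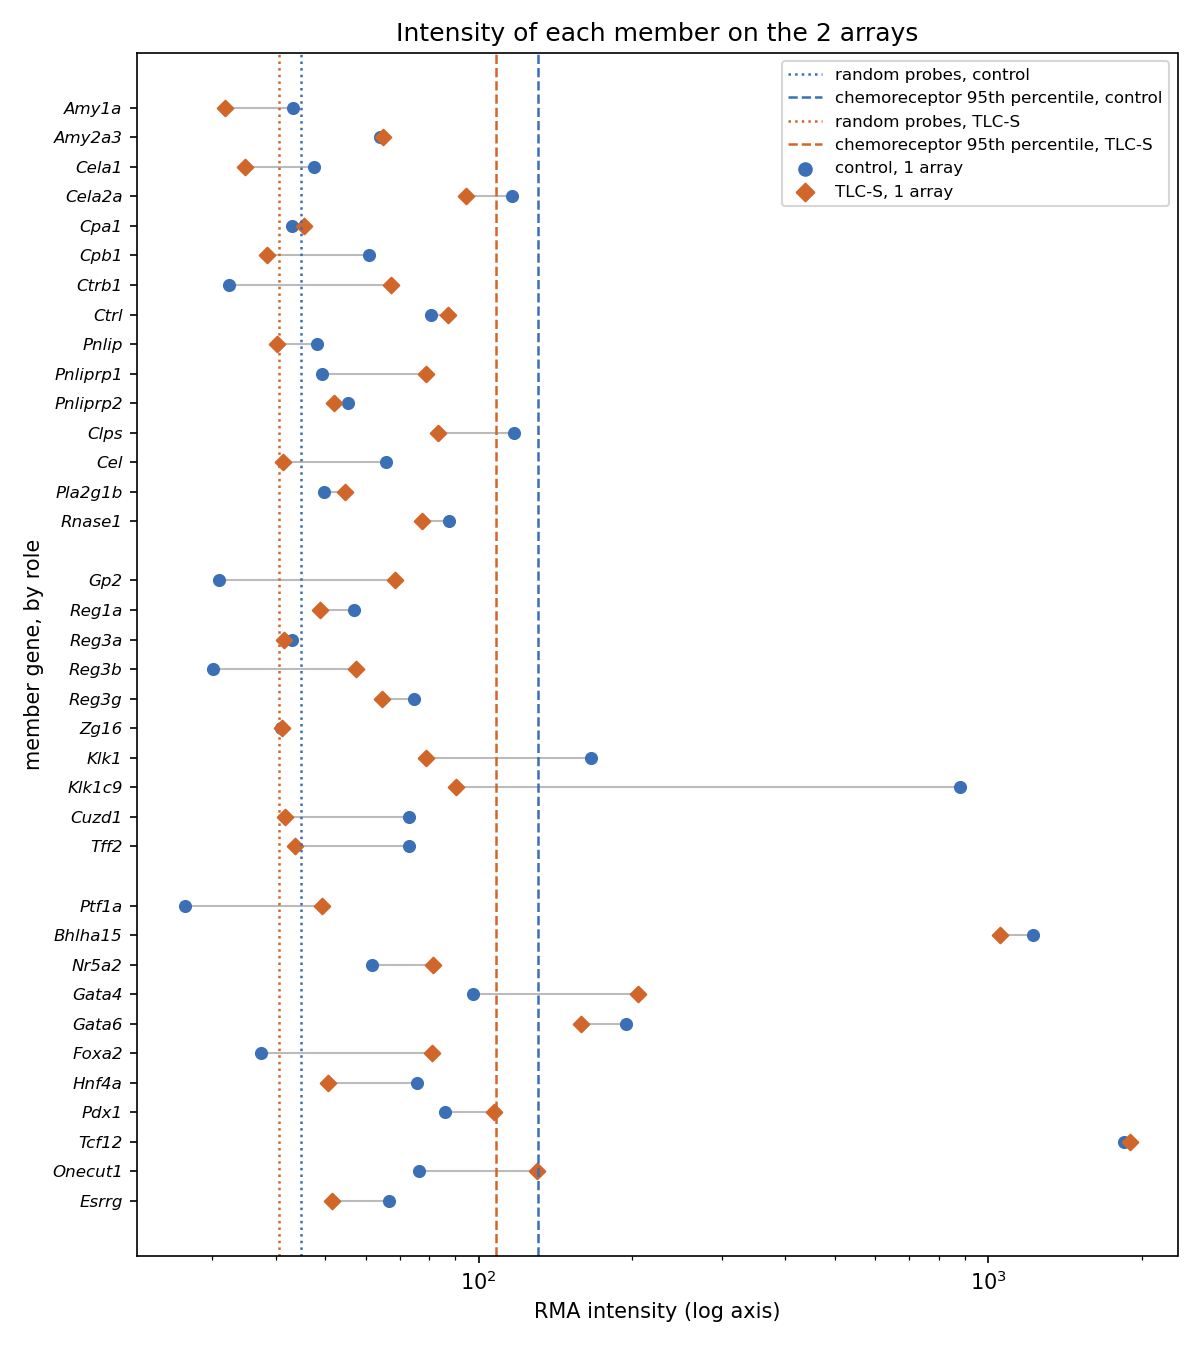
RMA intensity (log axis) of the 36 genes with a target, grouped from top to bottom as digestive hydrolases, granule, regenerating and kallikrein proteins, and transcription factors. Circles are the control array and diamonds the TLC-S array (1 array each). Dotted lines are the random probes and dashed lines the 95th percentile of chemoreceptor targets (131 in control and 108 in TLC-S). Tcf12, Bhlha15 and Gata6 lie to the right of both dashed lines on both arrays, Klk1c9 and Klk1 in control alone, and Gata4 in TLC-S alone.

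Among the 10 granule, regenerating and kallikrein proteins with a target, 8 were under 100 on both arrays. Gp2, the main membrane protein of zymogen granules, gave 30.9 in control and 68.6 in TLC-S, and the granule lectin Zg16 gave 41.0 and 41.2. Cuzd1, another granule membrane protein, gave 73.1 and 41.7. The regenerating proteins, secreted lectins that rise in pancreatitis, gave 56.9 and 48.9 for Reg1a, 43.1 and 41.4 for Reg3a, 30.1 and 57.3 for Reg3b, and 74.7 and 64.6 for Reg3g. The trefoil peptide Tff2 gave 73.0 and 43.6. None of these 8 passed the receptor percentile on either array.

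Of the 25 secretory genes of the set with a target, only the kallikreins Klk1c9 and Klk1 passed the receptor percentile, in control alone. Klk1c9, a member of the rat glandular kallikrein cluster, gave 881 in control, 19.7 times the random probes, and 90.3 in TLC-S. It was at least 8.81-fold lower in TLC-S, counted against an intensity of 100, a log2 ratio of -3.14 or beyond. The measured ratio was -3.29, and both values lay below the central 95% of measured ratios of targets of like signal (-2.02 to 1.96). Klk1, which cleaves kininogen to release kinins, gave 166 in control and 78.7 in TLC-S, at least 1.66-fold lower. Its measured log2 ratio of -1.08, taken from a TLC-S value under 100, lay inside the central 95% of its signal range (-1.88 to 1.75). Both were above the receptor percentile in control and below it in TLC-S. Members of the rat cluster are near-identical copies, and a target may read several of them.

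The trypsinogens, precursors of trypsin and no part of the 41 genes, were lower too. Intensities were 5337 in control and 603 in TLC-S for Prss1, 7536 and 856 for Prss2, 15742 and 2183 for Prss3 (read by a target of a predicted record), and 470 and 79.9 for Try10. Of 5 genes of that list, 4 were at least 2-fold lower, against 5.38% of all named genes. The trypsin inhibitor Spink1, at 46.3 and 40.0, was under 100 on both arrays. Over all 1270 chemoreceptor targets the median log2 ratio was -0.04, with 5.75% at least 2-fold lower in TLC-S and 2.76% higher, but the few bright ones were mostly lower. With the geometric mean of both arrays at 300 or more, 7 of 9 receptor targets passed 2-fold downwards and 0 upwards, against 303 (3.77%) and 757 of the 8034 targets of all kinds. With 300 or more on either array, a limit that favours large differences, the counts were 13 (65%) and 4 (20%) of 20 receptor targets. Of the 8968 targets of all kinds at that limit, 519 (5.79%) passed downwards and 1078 (12%) upwards. The olfactory receptor Or2r3b was 9.15-fold lower, at 4723 and 516. With 1 array per group, a high control value and a low TLC-S value cannot be told apart for the receptors, the kallikreins or the trypsinogens. Whether the receptor targets and these proteases share a source of high control signal was not tested, and the limits were set after the values were seen.

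**Figure D2:**
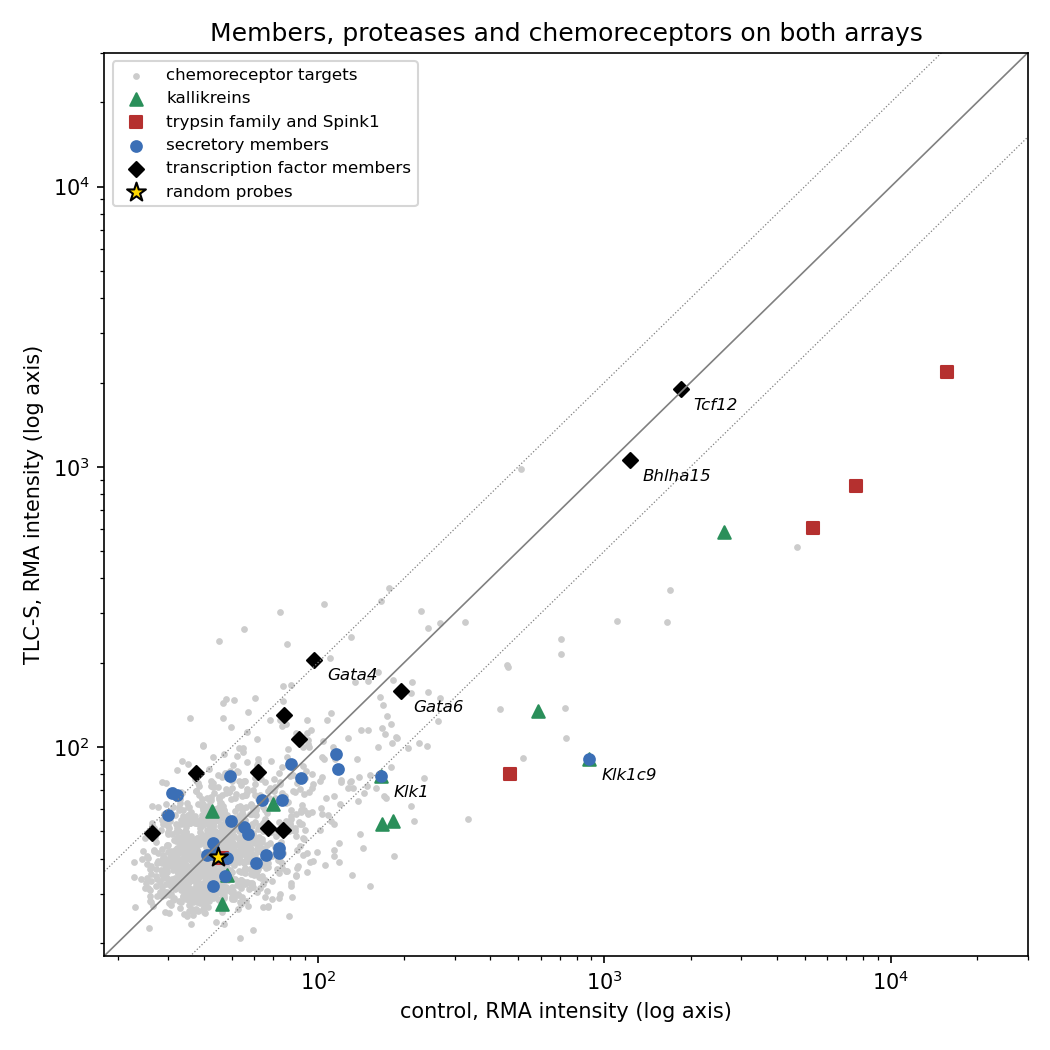
Control against TLC-S intensity (both axes log, 1 array each) for chemoreceptor targets, kallikreins, the trypsin family with Spink1, the 36 genes and the random probes. The solid line marks equal intensity and the dotted lines 2-fold; Klk1c9, the trypsins and most of the chemoreceptor targets that were bright in control lie below the lower dotted line, and Tcf12 and Bhlha15 lie near the line of equality.

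The transcription factors held the 3 genes measured on both arrays. Tcf12, the E protein that pairs with Ptf1a, gave 1851 in control and 1900 in TLC-S, 1.03-fold higher as deposited, and its log2 ratio of 0.04 turned to -0.02 with median centring and -0.24 with loess. Bhlha15 gave 1227 and 1056 and was 1.16-fold lower. Gata6, a zinc finger factor needed for the acinar program, gave 195 and 159 and was 1.23-fold lower. These 3 ratios lay within the central 95% of targets of like signal. Gata6 was above the 95th but not the 99th percentile of the receptors (364 in control and 264 in TLC-S).

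Ptf1a itself was not above background. It gave 26.5 in control, under the random probes, and 49.3 in TLC-S. Nr5a2, a nuclear receptor that acts on enzyme genes beside PTF1, gave 61.6 and 81.4. Hnf4a, a nuclear receptor of liver, gut and pancreas, and Esrrg, one of metabolic tissues, gave 75.5 and 50.7, and 66.8 and 51.6. Foxa2, a forkhead factor of endoderm, gave 37.5 and 81.1. These 5 genes were under 100 on both arrays.

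For 3 other factors a level above 100 was seen in TLC-S alone. Gata4, a relative of Gata6 active in the developing pancreas, gave 97.3 in control and 205 in TLC-S and was at least 2.05-fold higher. Onecut1, also called Hnf6, gave 76.3 and 130 and was at least 1.30-fold higher. Pdx1, the homeobox factor of pancreatic progenitors and beta cells, gave 85.7 and 107, just under the receptor percentile of 108, and was at least 1.07-fold higher. Gata4 and Onecut1 passed that percentile in TLC-S and not in control. The measured log2 ratios of 1.08 for Gata4, 0.77 for Onecut1 and 0.32 for Pdx1, which take control values under 100 as they stand, lay inside the central 95% for targets of like signal (-1.88 to 1.75).

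Counted over all 36 genes by measured ratio, bounds set aside, 4 passed 2-fold upwards in TLC-S and 2 downwards. The higher ones were Gata4, Gp2, Foxa2 and Ctrb1, and the lower ones Klk1c9 and Klk1. Among all named genes the shares were 8.67% upwards and 5.38% downwards. Gp2, Foxa2 and Ctrb1 were under 100 on both arrays, where the shares of 4472 named genes past 2-fold were 1.90% upwards and 3.38% downwards. The median log2 ratio of the 36 genes was -0.13, that of all named genes 0.15, and that of 8 reference genes 0.66 (7 higher, up to 1.34 for Ldha and 1.16 for Tubb5, with Actb at 0.72, Gapdh at 0.65 and Hprt1 lowest of the 7 at 0.08, and B2m lower at -0.67). Over all targets, named or not, the median was 0.06. There the ratio varied with signal, so these medians compare genes of unlike signal. The loess curve stood at -0.10 at the median signal of the 36 genes. The brightest of 10 bins of targets had a median of 0.18. For the hydrolases the median was -0.17, for the granule, regenerating and kallikrein proteins -0.21 and for the transcription factors 0.32.

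Outside the central 95% of targets of like signal lay 6 of the 36, with Klk1c9 lower and Ptf1a, Ctrb1, Gp2, Reg3b and Foxa2 higher. All 5 of the higher ones were under the random probes in control, and in TLC-S they lay between 49.3 for Ptf1a and 81.1 for Foxa2, under the receptor percentile of 108. With 50 added to both intensities, 0 of the 36 genes passed 2-fold upwards and only Klk1c9 did downwards.

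**Figure D3:**
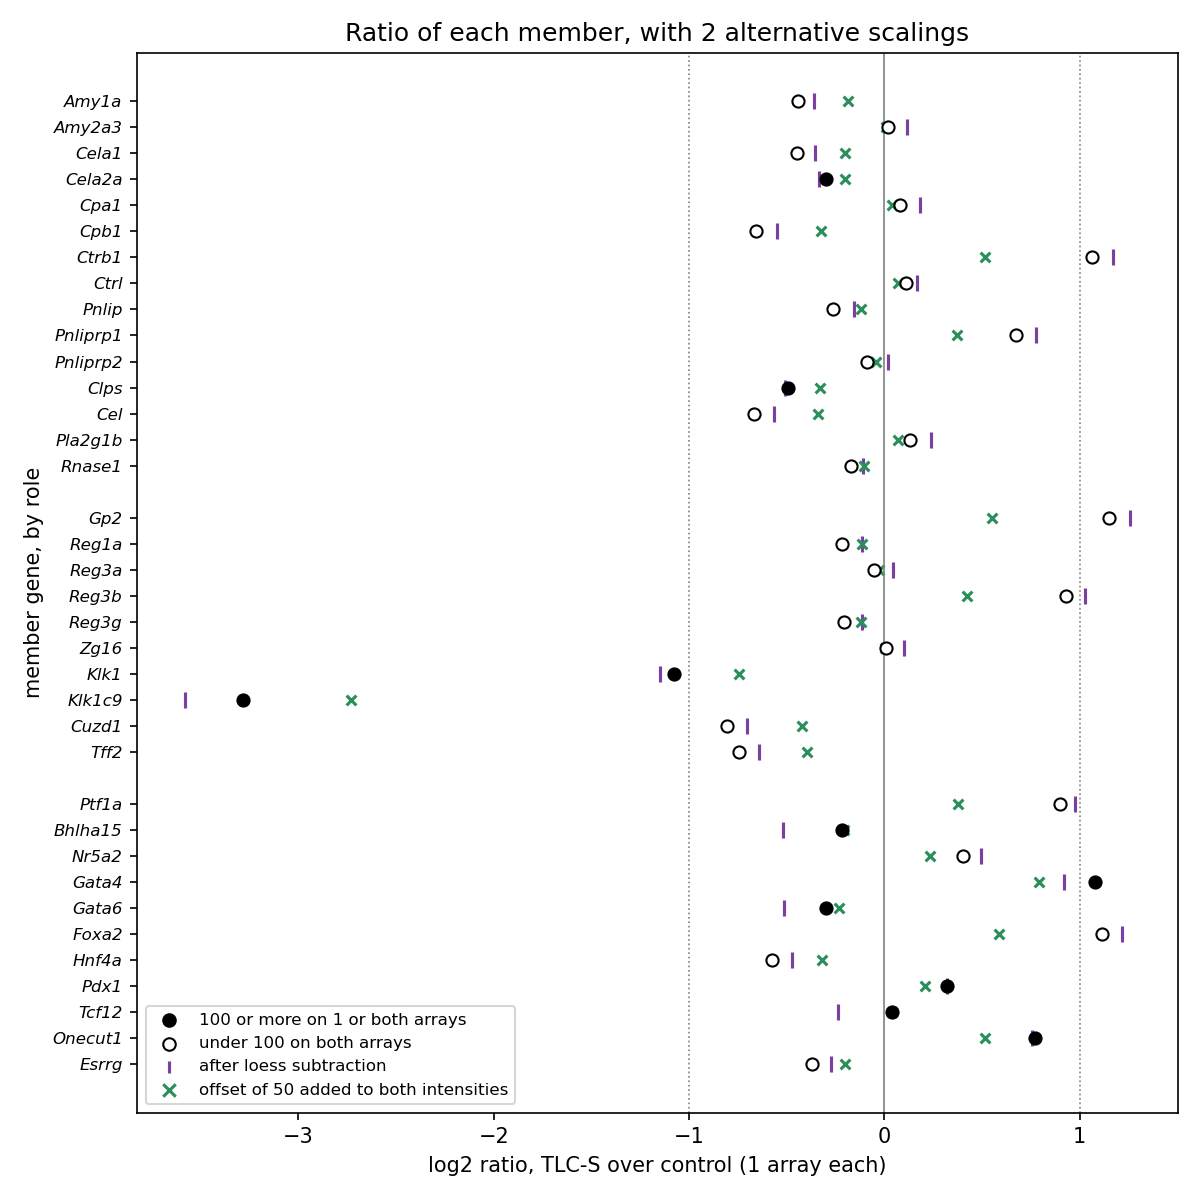
Log2 ratio of TLC-S over control for the 36 genes (1 array each), in the same order of groups as the plot of levels. Filled circles reached 100 on at least 1 array and open circles on none, bars show the ratio after loess subtraction and crosses that with 50 added to both intensities, and dotted lines mark 2-fold; Klk1c9, at -3.29, lies left of the others, and the open circles beyond 1 have values under 1 once 50 is added.

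The partners of these factors were read from a separate list. Of its 11 genes 9 had a target, and 4 of these passed the receptor percentile on both arrays, a smaller share than the 60.0% of all named genes. The E protein Tcf3 gave 1171 in control and 2326 in TLC-S at its brighter target (1.99-fold higher) and 608 and 942 at the other (1.55-fold). The E protein Tcf4 gave 2884 and 3454. Rbpj, the DNA-binding subunit shared by PTF1 and Notch signalling, gave 482 and 726, read by a target of a predicted record. Xbp1, which drives expansion of the endoplasmic reticulum in secretory cells, gave 7644 and 8854. Hes1, a Notch target that holds back acinar genes, gave 110 and 495, 4.51-fold higher, and was the only gene of the list past 2-fold; its control value was under the receptor percentile. Thus the E proteins were above background on both arrays while Ptf1a was not. Rbpj was above background too, but its target comes from a predicted record. A target without a matching accession was named only if it reached the authors' intensity limit on both arrays, and a dim one stayed unnamed. For Rbpj the contrast with Ptf1a may therefore be partly set by the naming.

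Of 10 genes of zymogen granule traffic, 6 were past the receptor percentile on both arrays, near the 60.0% of all named genes, and 1 gene passed 2-fold in each direction by measured ratio. Rab3d, a small GTPase of the granule membrane, gave 254 in control and 611 in TLC-S, 2.41-fold higher. Rab26, another granule GTPase, gave 271 and 48.8, at least 2.71-fold lower. The membrane fusion proteins Vamp8 and Vamp2 gave 1508 and 1718, and 477 and 319. Of 11 other acinar-enriched genes, 6 had a target. Of these 6, 0 reached 100 on both arrays, against 65.3% of all named genes, and 3 passed 2-fold downwards by measured ratio, against 5.38%. These 3 were the cholecystokinin receptor Cckar (155 and 57.0), the stress protein Nupr1 (142 and 57.0) and the methyltransferase Gnmt (112 and 55.0). All were under 100 in TLC-S, so that the folds are bounds of at least 1.55, 1.42 and 1.12. Their measured log2 ratios of -1.44, -1.32 and -1.03 lay inside the central 95% for targets of like signal (-1.88 to 1.75 for Cckar, -1.62 to 1.48 for the others).

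Markers of other pancreatic cells and of leukocytes were read as a check of the label. Of 17 endocrine markers 0 passed the receptor percentile on both arrays, nor did any of 7 stellate cell and fibroblast markers (the brightest, Acta2, gave 118 and 47.1), while 1 of 9 duct markers did, the tight junction gene Cldn4 (304 in control and 130 in TLC-S). The endocrine factor Pax6 gave 104 and 181, and the granule protein Chga 104 and 121. Of 6 leukocyte markers, 5 passed it on both: Ptprc gave 1175 and 993, Cd79b 1263 and 1079, Cd53 992 and 786, Coro1a 878 and 1511, and Laptm5 3442 and 3954. The myeloid receptor Csf1r, at 85.1 and 73.8, did not. Of all named genes 60.0% passed it on both. As a comparison between the arrays within each list, and not between lists, intensities summed to 7836 and 8398 over the leukocyte list, 1077 and 1111 over the endocrine, 737 and 584 over the duct and 429 and 363 over the stellate cell and fibroblast list. Of genes that mark an exocrine acinar cell, 3 trypsinogens and Bhlha15 were above the receptor percentile on both arrays, and the 15 hydrolases were not. An amylase target outside the set, LOC103689940 (181 and 233), was also above it. That target was named by a route open only to targets that reached the authors' intensity limit on both arrays, so its level is largely set by the naming. Bhlha15 and Xbp1 are also expressed by plasma cells, and the part of leukocyte transcripts in their levels was not tested.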

How the data were processed

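Each group gave total RNA for 1 one-colour array, per the labels' protocols. Per the file headers, the deposited values are RMA intensities, linear and 1 per target of mostly 5 probes. The submitters' processing notes name RMA without a version, with its settings not given in the sources used here. Targets were named by RefSeq accession (9747), by the authors' gene ID (4950) or by the authors' symbol (1644) through a RefSeq gene table of GRCr8, and 10078 stayed unnamed. The routes by gene ID and symbol were open only to targets in the authors' table, at 100 or more on both arrays. A dim target without a matching accession therefore stayed unnamed, and the named genes lean to bright ones. Where a gene had several targets, the one with the highest mean log2 intensity was used. Ratios are TLC-S over control. A single gene's fold is a bound against 100 where 1 array is under 100, and none is given where both are. Counts past 2-fold, log2 ratios and their medians use the measured intensities of every gene, these included. The central 95% of ratios was taken within 10 equal bins of mean signal. A promoter window is the first listed for each gene, without the transcribed bases.

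The genes, the lists and the limits were chosen with earlier results of these data known. Named are every gene of the set with a target, the trypsin family, Actb and Gapdh, and of each other list the 2 largest absolute ratios among genes that reach 100 on both arrays, plus the brightest gene. Other genes, the receptors, kallikreins, amylase and Id genes among them, were chosen after their values were seen. Chemoreceptor targets are those whose symbols begin as olfactory, vomeronasal or taste receptors do. Precision is limited by having 1 array in each group. The computation was checked on simulated data. Unmapped value columns numbered 0. The tools were matplotlib 3.10.9, statsmodels 0.14.6, scipy 1.17.1, pandas 2.3.3, numpy 2.4.6 and Python 3.11.15. Alternatives were the choice of target, the series values, median centring, loess (span 0.3, 3 iterations), an offset of 50, other limits on signal and other fold thresholds.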

Additional observations from a re-analysis of the deposited data

How the results depend on the processing

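No paired analysis was possible because control and TLC-S have 1 array apiece, which also leaves no replicate to omit. Each of the 36 genes had 1 target, and the series values equal those of the sample files, so the choice of target and of source repeats the reported values by construction. The count of 3 genes measured on both arrays was 7 with 2 times the random probes as the limit and 5 with the median of all targets, both of which are lower limits. The count above the receptor percentile was 2 with the 99th percentile, where Gata6 was lost. The count of 4 genes at least 2-fold higher was 3 after median centring, 4 after loess, 1 among genes at 100 or above the receptor percentile on at least 1 array, and 0 with an offset of 50. At 1.5-fold, 8 were higher and 6 lower, and at 3-fold 0 and 1. The count of 2 lower genes was 1 with the offset, which shrinks ratios of low intensities by construction. The median log2 ratio ran from -0.26 to -0.08 over the alternatives, and 3 of 36 signs turned with loess (Pnliprp2, Reg3a and Tcf12) and 3 with centring (Amy2a3, Zg16 and Tcf12). The 216 alternative values of single genes include the choices of target and source, which could not move. Of the 216, 3 (log2 ratios of 0.51 for Ctrb1, 0.55 for Gp2 and 0.38 for Ptf1a with the offset) moved by more than the SD of targets of like signal.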

Other observations

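The kallikreins were followed beyond Klk1 and Klk1c9, as genes chosen after their values were seen. Of 10 kallikrein genes with a target, 9 had a lower intensity in TLC-S and 6 were at least 2-fold lower by measured ratio, against 5.38% of all named genes. Klk7, an epidermal protease read by a target of a predicted record, was 4.49-fold lower in TLC-S, at 584 against 2625 in control. Klk1b3, of the same cluster as Klk1c9, gave 586 and 135, 4.35-fold lower. Klk1c8 gave 168 and 53.0, and Klk6 183 and 54.6, at least 1.68-fold and 1.83-fold lower. Klk1, Klk1c9, Klk1c8 and Klk6 reached 100 in control alone, and Klk10, Klk1c2, Klk1c12 and Klk4 were under 100 on both arrays.

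One amylase target outside the set was above the receptor percentile on both arrays. It was named through the synonym Amy2-3 as LOC103689940, comes from a predicted record, and gave 181 in control and 233 in TLC-S, 1.29-fold higher. The route by symbol was open only to targets that reached the authors' intensity limit on both arrays. A dimmer amylase target of this kind would have stayed unnamed, so the level of LOC103689940 is largely set by the naming. It cannot be weighed against the target of Amy2a3, at 64.0 and 64.8. Which amylase copy each target reads was not tested.

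The Id proteins bind E proteins and keep them from DNA, and they were read as well. Id3 gave 364 in control and 305 in TLC-S, Id2 67.0 and 158, at least 1.58-fold higher, Id4 96.4 and 145, and Id1 49.1 and 52.0. Only Id3 was above the receptor percentile on both arrays.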
